A study of Mus musculus with 12 samples.

Results

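Mitochondrial ribosomal protein genes were taken as the rows of the count tables whose symbol is Mrpl or Mrps followed by a number and at most a letter from a to c. There were 77 such genes among 32531 gene rows. In these libraries ribosome-bound RNA had been purified by translating ribosome affinity purification (TRAP) from JX883 mice, an Slc17a6-EGFP/Rpl10a line in which the cytosolic ribosomal protein Rpl10a, fused to EGFP, is made in cells that express Slc17a6, the gene of the vesicular glutamate transporter VGLUT2. The 4 groups, all from adult mice of this line, were RNA bound to tagged ribosomes of the hypothalamus (hypothalamus IP), whole-tissue RNA of the hypothalamus (hypothalamus input), RNA bound to tagged ribosomes of the midbrain (midbrain IP) and whole-tissue RNA of the midbrain (midbrain input), with 3 libraries each. No treatment, genotype contrast or IP from mice without the tag was labelled, and the labels do not tell single animals from pools. The p-values therefore measure the spread between these libraries, which may be technical.

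Mitochondria hold their own ribosome, the mitoribosome, which translates the few proteins encoded by mitochondrial DNA, all of them subunits of the oxidative phosphorylation complexes. Its ribosomal RNAs come from mitochondrial DNA, whereas its proteins are encoded in the nucleus, translated on cytosolic ribosomes and imported. The mRNAs of Mrpl (large subunit) and Mrps (small subunit) genes can therefore be caught on EGFP-tagged cytosolic ribosomes. Part of these proteins have a counterpart in the bacterial ribosome and the others are particular to mitochondria. The symbols do not always tell the subunit: the proteins of Mrps30 and Mrps18a sit in the large subunit, and that of Mrps36 is now placed in the 2-oxoglutarate dehydrogenase complex rather than in the ribosome.

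The library totals over genes were between 41909019 and 55148109 counts. Levels are given as CPM, counts scaled to library size with the trimmed mean of M values. Slc17a6, which checks the purification, had 3490, 1120 and 1740 CPM in the hypothalamus IP against 518, 218 and 311 CPM in the input. In the midbrain Slc17a6 had 3950, 1860 and 2390 CPM in the IP against 1240, 501 and 589 CPM in the input. All 10 astrocyte markers and all 10 oligodendrocyte markers fell in the IP of both regions. The summed oligodendrocyte markers were at 180.4 to 204.5 CPM in the hypothalamus IP against 2318 to 3167 CPM in the input. They were at 279.6 to 422.7 CPM in the midbrain IP against 4464 to 5929 CPM in the input. All 6 markers of GABAergic neurons fell as well, whereas general neuronal markers moved the way of the members: 8 of 11 rose in the hypothalamus IP (median log2 fold change 0.64) and 4 of 11 in the midbrain IP (0.50), and 0 fell. Summed, the general neuronal markers were at 16480 to 22570 CPM in the hypothalamus IP against 9633 to 13250 CPM in the input, and at 20790 to 28530 CPM in the midbrain IP against 16060 to 18870 CPM in the input. No marker on these lists was at 0 in all IP libraries. These markers moved with the same contrast as the results below, their part in which was not tested. In these bulk samples, how many cells of a type gave RNA to the IP and how much each gave cannot be told apart. All IP libraries carried a common index and all input libraries another, so index and fraction cannot be told apart.

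The libraries of replicate number 1 stood apart in all 4 groups. The 45S ribosomal RNA precursor Rn45s took 12.3% and 12.5% of the counts in both replicate 1 IP libraries, against 5.21% to 6.85% in the other IP libraries, and reads counted as ambiguous between genes were 15.1% to 16.2% in the replicate 1 inputs against 4.03% to 9.30% in the other inputs. Counts of members are given below with and without these libraries, and so are the calls of named genes that changed without them. A fit with the replicate number as a block is given, for single genes or as a count, where it changed calls.

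The promoters of the members that were raised most in the IP and of those near no difference are printed here as a description. No test below used promoter sequence. RefSeq start sites of the GRCm38.p6 assembly were found for 68 of the 77 members. The sequences are the 150 bases before the start, 5′ to 3′ on the gene's strand. Capitals mark matches on either strand to 5 short letter runs: CGCATGC (the core of the site of NRF1, a regulator of nuclear genes for mitochondrial proteins), CCGGAAG (ETS factors), AAGATGG (YY1), GGGCGG (SP factors) and CCAAT. A capital run at the edge is a match that continues outside the window. Of the 6 members with the highest ratio in the hypothalamus, Mrps34 had no entry, and the other 5 were Mrps12 (chr7:28741822-28741971, minus strand), Mrpl20 (chr4:155802728-155802877, plus strand), Mrpl12 (chr11:120484487-120484636, plus strand), Mrpl14 (chr17:45686199-45686348, plus strand) and Mrps33 (chr6:39810937-39811086, minus strand).

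Mrps12: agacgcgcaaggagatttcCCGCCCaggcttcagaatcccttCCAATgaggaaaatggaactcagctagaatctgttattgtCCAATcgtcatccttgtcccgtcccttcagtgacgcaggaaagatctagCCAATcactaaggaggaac

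Mrpl20: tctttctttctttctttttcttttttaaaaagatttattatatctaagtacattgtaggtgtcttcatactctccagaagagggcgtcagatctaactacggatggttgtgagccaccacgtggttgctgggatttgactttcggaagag

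Mrpl12: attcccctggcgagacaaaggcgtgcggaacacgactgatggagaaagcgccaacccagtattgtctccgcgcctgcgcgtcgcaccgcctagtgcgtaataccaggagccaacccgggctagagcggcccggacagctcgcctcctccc

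Mrpl14: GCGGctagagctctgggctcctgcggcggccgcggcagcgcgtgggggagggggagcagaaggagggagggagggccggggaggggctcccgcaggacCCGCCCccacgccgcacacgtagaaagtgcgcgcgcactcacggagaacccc

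Mrps33: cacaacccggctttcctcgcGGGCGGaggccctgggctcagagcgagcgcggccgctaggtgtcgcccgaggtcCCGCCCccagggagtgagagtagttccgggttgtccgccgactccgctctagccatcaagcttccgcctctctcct

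The 3 genes with the lowest ratio in the hypothalamus were Mrps22 (chr9:98601680-98601829, minus strand), Mrps31 (chr8:22411190-22411339, plus strand) and Mrpl24 (chr3:87919394-87919543, plus strand). Mrpl33 (chr5:31613801-31613950, plus strand), among the 6 most raised in the midbrain, is shown for its match to the NRF1 letters 11 bases before the start.

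Mrps22: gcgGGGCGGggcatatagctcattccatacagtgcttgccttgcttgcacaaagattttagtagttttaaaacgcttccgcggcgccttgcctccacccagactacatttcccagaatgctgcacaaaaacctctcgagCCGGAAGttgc

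Mrps31: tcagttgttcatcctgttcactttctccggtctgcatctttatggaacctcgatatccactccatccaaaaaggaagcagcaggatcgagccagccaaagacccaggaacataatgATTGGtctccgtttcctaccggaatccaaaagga

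Mrpl24: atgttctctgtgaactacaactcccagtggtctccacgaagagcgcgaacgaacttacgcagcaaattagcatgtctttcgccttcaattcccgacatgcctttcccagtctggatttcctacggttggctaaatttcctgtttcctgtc

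Mrpl33: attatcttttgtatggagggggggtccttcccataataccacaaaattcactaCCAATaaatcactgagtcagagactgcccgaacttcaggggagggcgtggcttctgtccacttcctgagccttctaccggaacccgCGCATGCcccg

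Among 74 member promoters (250 bases before each start, some genes with more than 1 start), 10.8% held the NRF1 letters, against 3.02% of all 32851 promoters. The ETS letters were in 23.0% of member promoters against 6.91% of all, the YY1 letters in 8.11% against 4.49%, the SP letters in 50% against 32.7%, and CCAAT in 37.8% against 33.8%. Member promoters were also richer in G and C, with a median of 58.4% against 52.4% over all promoters; the part of base composition in these shares was not tested. In the windows shown, Mrpl20 and Mrpl12, which rose, and Mrpl24, which did not pass the test, had no match, and a match is a description of letters, not of a bound factor. Members with and without the NRF1 letters had medians of 0.79 and 0.79 for the log2 fold change of hypothalamus IP over input (8 and 59 genes), and members with and without the ETS letters 0.81 and 0.78 (16 and 51 genes). For the YY1 letters the medians were 1.03 and 0.78 (6 and 61 genes), for the SP letters 0.73 and 0.86 (33 and 34 genes) and for CCAAT 0.86 and 0.78 (24 and 43 genes). These differences were not tested.

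Another shared property was position. A protein-coding gene on the opposite strand started within 1000 bases upstream of 18 of the 77 members (23.4%), against 6.79% of 21951 annotated protein-coding genes. Mrps12, for example, lies at chr7:28739641-28741820 (mm10, minus strand) and starts 172 bases from Sars2, the mitochondrial seryl-tRNA synthetase. These 18 members had a median log2 fold change of IP over input of 0.72 in the hypothalamus and 0.90 in the midbrain, and 11 of them rose in each region. Of the other 58 tested members, 38 rose in the hypothalamus (median 0.81) and 36 in the midbrain (0.64). The 18 partners had medians of 0.0035 and 0.15, with 3 rising and 2 falling in the hypothalamus and 2 and 2 in the midbrain; over all genes tested, 14.2% rose and 19.6% fell in the hypothalamus and 14% and 19.9% in the midbrain. Mrps12 rose while Sars2, at 0.53 ± 0.26 (log2, standard error, adjusted p = 0.139) in the hypothalamus and 0.21 ± 0.26 (adjusted p = 0.577) in the midbrain, did not pass the test.

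Of the 77 members, 76 had enough counts to be tested. The remaining member, Mrpl53, had 0 counts in all 12 libraries, and a count of 3, taken as the floor, would have been 0.0537 to 0.0710 CPM. In the annotation 88.0% of its exonic bases overlap the predicted gene Gm42688 on the same strand, so reads from it could have been set aside as ambiguous, and its 0 is not read as absence. A further 3 members were counted at low levels, Mrpl23 with 447 counts, Mrps18b with 1298 and Mrps34 with 1378 over all 12 libraries. Exons of Mrps34 overlap Nme3 on the same strand and Mapk8ip3 on the other strand, and exons of Mrps18b overlap Gm16279. Over 10% of the exonic bases overlapped another gene in 18 members, and over 10% of the 50-base words were shared with another gene in 22, whereas 50 members had neither. The strand setting of the counting is not stated, which leaves the values of the overlapping members uncertain.

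The 12-library mean per kilobase of exonic sequence, the scale on which genes can be compared, ranged over the 76 members from 0.771 CPM per kb for Mrpl23, whose protein sits at the exit of the peptide tunnel, to 90.5 CPM per kb for Mrps21 of the small subunit. Besides Mrps21, the highest were Mrpl42 at 83.1 and Mrpl18, of the central protuberance of the large subunit, at 77.5 CPM per kb. Besides Mrpl23, the lowest were Mrps18b at 1.99 and Mrps34 at 2.49 CPM per kb, both overlapped by other genes as given above. By subunit class, the median was 24.2 CPM per kb for the 30 large-subunit proteins with a bacterial counterpart and also for the 19 tested large-subunit proteins particular to mitochondria, 21.4 for the 16 small-subunit proteins with a bacterial counterpart and 8.23 for the 10 small-subunit proteins particular to mitochondria. Without division by length the class medians were closer, at 38.8, 33.3, 29.6 and 24.8 CPM in the same order. The parts of exonic length and of overlap with other genes in the class medians were not tested. The members' order by level was nearly the same in every group: across the 76 genes, which are not independent, the log2 means correlated at r = 0.95 between hypothalamus IP and input, 0.95 between midbrain IP and input, 0.99 between both IPs and 0.98 between both inputs, in libraries of like depth. The highest mean CPM was that of Mrps14, a protein of the small-subunit head, in 3 groups, and that of Mrpl18 in the midbrain input.

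The first question was whether mRNAs of the mitoribosome were more or less abundant on ribosomes of Slc17a6-expressing cells than in whole-tissue RNA, which includes these cells. In the hypothalamus, 49 of 76 members rose in the IP and 0 fell. Over all 18128 genes tested, 14.2% rose and 19.6% fell. The members' median log2 fold change was 0.78, against -0.08 over all genes, and 75 of 76 were above 0, with between 0 and 7 below 0 under the other scalings. All 3 IP libraries lay above all 3 inputs in 51 members and below them in 0, against 19.7% and 27.3% of all genes. Summed over the 77 members, the IP held 3638 ± 364 CPM and the input 2074 ± 220 CPM (SD, n = 3 each), with no overlap between the groups.

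In the midbrain, 47 of 76 members rose and 0 fell, with 14% of all genes rising and 19.9% falling. The median log2 fold change was 0.69, against -0.05 over all genes, and 74 members were above 0, with between 2 and 8 below 0 under the other scalings. All 3 IP libraries lay above the inputs in 60 members, against 21.1% of all genes, and below them in 1 (Mrpl24), against 27.8%. The members summed to 3442 ± 199 CPM for the IP and 2086 ± 195 CPM for the input (SD, n = 3 each), again without overlap. Within each replicate number the IP sum was 1.76, 1.79 and 1.72 times the input sum in the hypothalamus and 1.73, 1.51 and 1.72 times in the midbrain.

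**Figure D1:**
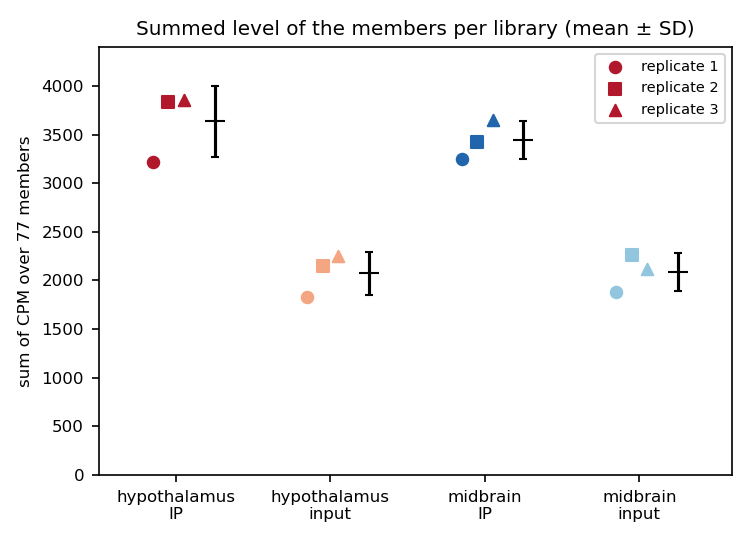
Sum of CPM over the 77 mitochondrial ribosomal protein genes in each of the 12 libraries (y axis, CPM), by group, with the mean and SD of 3 libraries beside the points and a marker shape for each replicate number. The 6 IP libraries lie between 3218 and 3859 CPM and the 6 inputs between 1827 and 2261 CPM, and replicate 1 is the lowest of its group in all 4 groups.

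The counts of members that rose depended on which libraries were used. Without all 4 libraries of replicate number 1 they were 56 in both regions. Without number 2 they were 20 in the hypothalamus and 24 in the midbrain, and without number 3 they were 30 and 25, while 0 members fell in any of these fits and the medians stayed between 0.67 and 0.83. Paired by number, the IP exceeded the input in 72, 76 and 72 members for numbers 1, 2 and 3 of the hypothalamus and in 72, 74 and 73 in the midbrain; 69 members did so in all 3 numbers in each region, against 29.4% and 31.0% of all genes. Among the 50 members with little overlap or shared sequence, 32 rose in the hypothalamus and 33 in the midbrain.

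**Figure D2:**
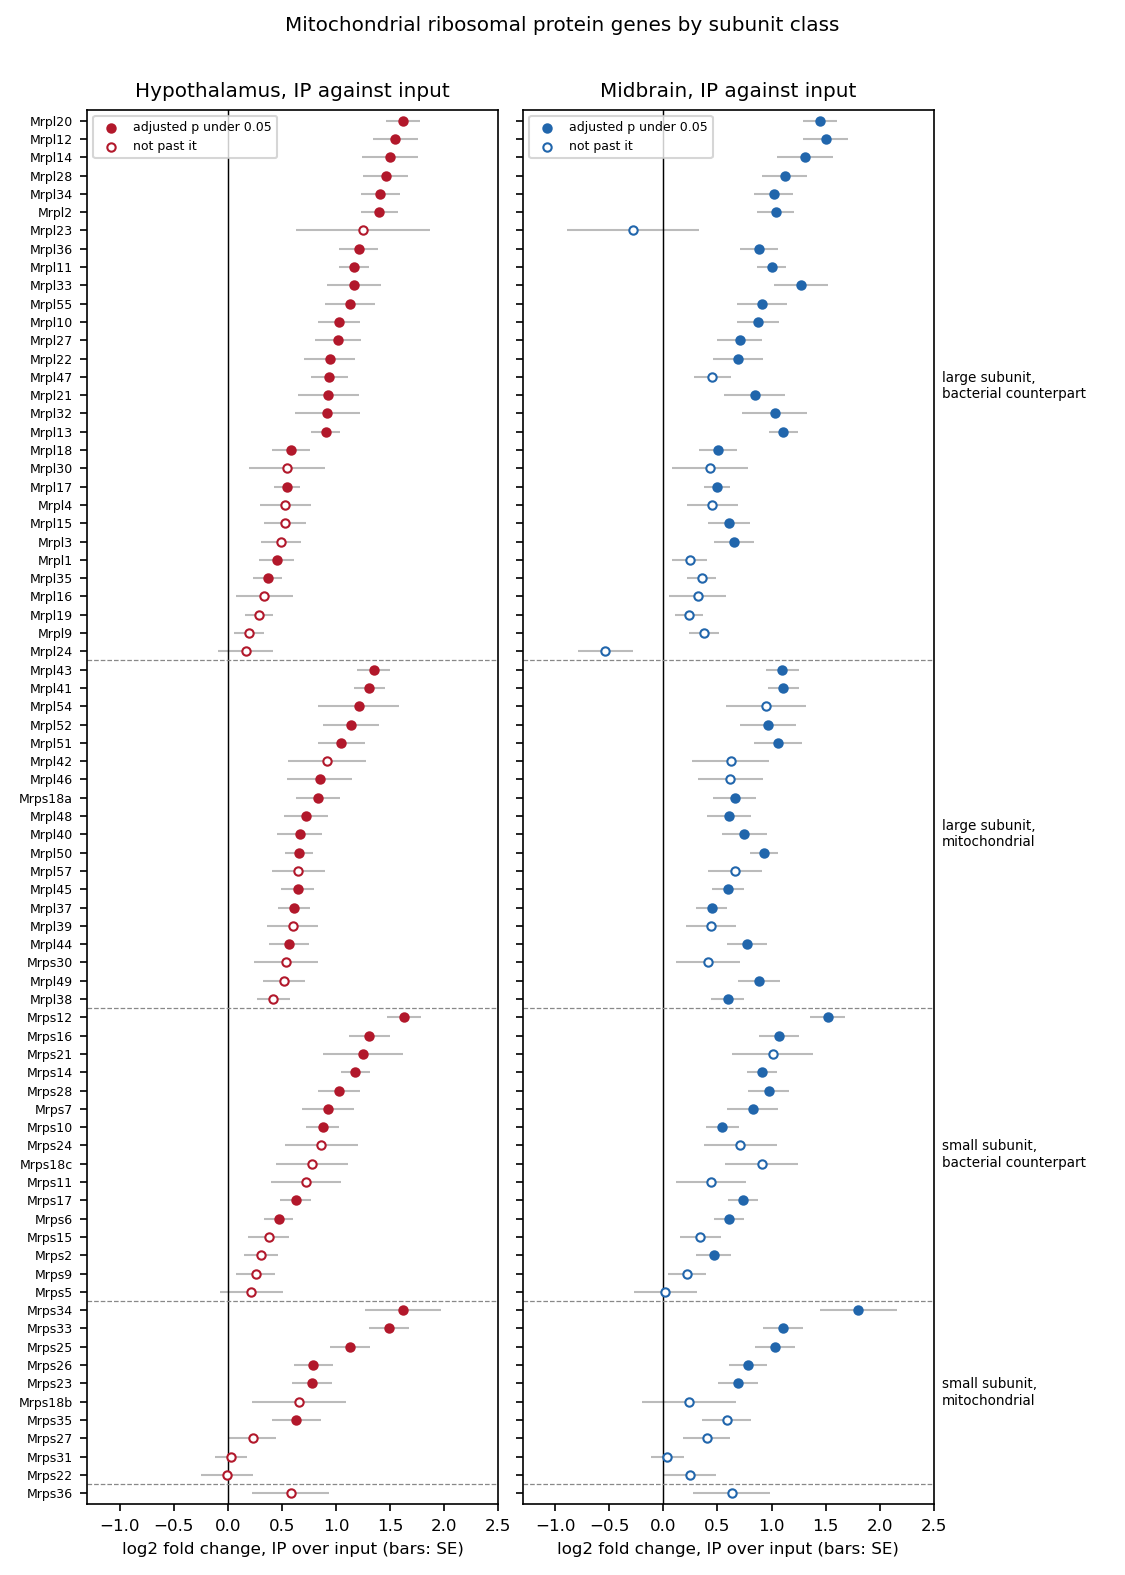
Log2 fold change of IP over input with its standard error for each of the 76 tested members, in the hypothalamus (left) and the midbrain (right), ordered within subunit class by the hypothalamus value, with filled points for an adjusted p under 0.05. All filled points lie above 0, 49 on the left and 47 on the right; under the length-trend scaling the filled point of Mrps6 in the hypothalamus comes to -0.04.

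Rises were found in every subunit class. In the hypothalamus they comprised 21 of 30 large-subunit proteins with a bacterial counterpart (median log2 fold change 0.93), 13 of 19 particular to mitochondria (0.67), 9 of 16 small-subunit proteins with a bacterial counterpart (0.82) and 6 of 10 particular to mitochondria (0.72). In the midbrain they were 20 (0.70), 13 (0.66), 9 (0.72) and 5 (0.64). Differences between classes were not tested.

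In the large subunit, Mrpl20, whose bacterial homologue is needed early in assembly, had 94.3, 88.9 and 88.9 CPM in the hypothalamus IP against 27.9, 29.6 and 31.2 CPM in the input. In the midbrain Mrpl20 had 78.5, 67.1 and 84.0 CPM in the IP against 27.5, 33.3 and 23.5 CPM in the input. The lowest IP library was thus well above the highest input in both regions, with log2 fold changes of 1.62 ± 0.16 (standard error; adjusted p = 2.26e-05, edgeR's quasi-likelihood test) and 1.45 ± 0.15 (adjusted p = 4.88e-05).

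Mrpl12, the stalk protein through which translation factors are recruited, had 89.3, 65.5 and 53.8 CPM in the hypothalamus IP against 24.8, 21.1 and 25.4 CPM in the input. In the midbrain Mrpl12 had 85.9, 63.2 and 60.2 CPM in the IP against 22.3, 28.0 and 23.6 CPM in the input. Replicate 1 was the highest IP library of this gene in both regions, unlike most members, and no IP library overlapped an input. The log2 fold changes were 1.55 ± 0.21 (adjusted p = 0.000211) and 1.5 ± 0.21 (adjusted p = 0.000274). Of its exonic bases 13.1% overlap Gm16755 on the other strand.

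Mrpl14, at the face of the large subunit that meets the small one, had 31.7, 35.7 and 26.9 CPM in the hypothalamus IP against 7.41, 14.7 and 11.2 CPM in the input. In the midbrain Mrpl14 had 26.0, 25.2 and 24.0 CPM in the IP against 7.40, 11.2 and 11.9 CPM in the input. Its log2 fold changes were 1.5 ± 0.26 (adjusted p = 0.00106) and 1.31 ± 0.26 (adjusted p = 0.00245). Mrpl33, near the exit site for tRNA, had 50.7, 55.5 and 58.5 CPM in the hypothalamus IP against 15.8, 28.3 and 29.1 CPM in the input. In the midbrain Mrpl33 had 40.1, 46.1 and 49.9 CPM in the IP against 13.1, 22.6 and 20.6 CPM in the input. Its replicate 1 was the lowest of every group, and its log2 fold changes were 1.17 ± 0.25 (adjusted p = 0.00372) and 1.27 ± 0.25 (adjusted p = 0.00241).

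In the small subunit, Mrps12, a protein of the decoding centre, had 83.7, 68.6 and 72.9 CPM in the hypothalamus IP against 24.1, 23.7 and 25.2 CPM in the input. In the midbrain Mrps12 had 74.2, 57.8 and 67.0 CPM in the IP against 19.4, 26.7 and 23.0 CPM in the input. It had the highest log2 fold change of all members in the hypothalamus, 1.63 ± 0.16 (adjusted p = 2.81e-05), and 1.52 ± 0.16 (adjusted p = 4.43e-05) in the midbrain. Mrps33, a small-subunit protein without a bacterial counterpart, had 36.5, 30.4 and 27.3 CPM in the hypothalamus IP against 9.68, 11.8 and 12.1 CPM in the input. In the midbrain Mrps33 had 27.6, 25 and 26.2 CPM in the IP against 10.6, 14.3 and 11.6 CPM in the input. The groups did not overlap, and the log2 fold changes were 1.49 ± 0.19 (adjusted p = 0.000127) and 1.11 ± 0.18 (adjusted p = 0.000838).

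Mrps14, the member with the most counts, had 176, 155 and 216 CPM in the hypothalamus IP against 75.2, 83.7 and 82.3 CPM in the input. In the midbrain Mrps14 had 143, 137 and 142 CPM in the IP against 71.2, 79.0 and 74.8 CPM in the input. Its log2 fold changes were 1.18 ± 0.14 (adjusted p = 7.47e-05) and 0.91 ± 0.14 (adjusted p = 0.000412), with no overlap. Mrps34, which is particular to mitochondria, had the highest value of the midbrain, 1.80 ± 0.36 (adjusted p = 0.00251), and 1.62 ± 0.35 (adjusted p = 0.00413) in the hypothalamus. It rests on few counts, with 3.71, 3.65 and 3.02 CPM in the hypothalamus IP against 1.12, 1.06 and 1.19 CPM in the input. In the midbrain Mrps34 had 4.42, 3.21 and 3 CPM in the IP against 1.06, 1.14 and 0.852 CPM in the input. Its call in the hypothalamus was lost without replicate 1 (adjusted p = 0.0534) and without number 2 (0.0799). Its exons overlap 2 other genes, as given above.

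**Figure D3:**
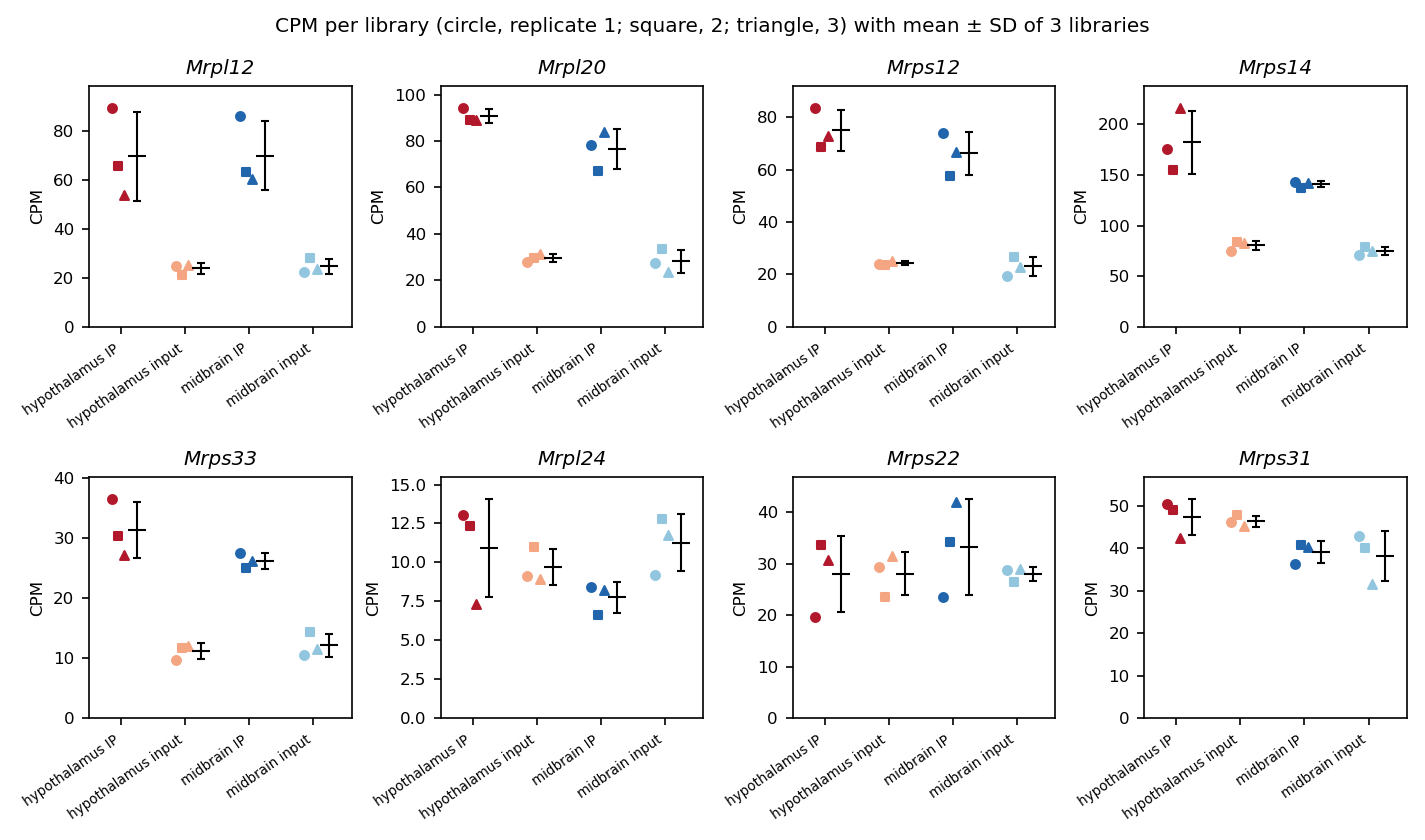
CPM (y axis, from 0) in each library for 8 members, by group, with the mean and SD of 3 libraries. In Mrpl12, Mrpl20, Mrps12, Mrps14 and Mrps33 all IP points lie above all input points of the region, while in Mrps22 and Mrps31 IP and input overlap in both regions and in Mrpl24 the midbrain IP lies below the input.

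The smallest rises that passed the test without overlap between libraries were those of Mrpl35, Mrpl1, Mrps6, Mrpl17, Mrpl44 and Mrpl37 in the hypothalamus, with log2 fold changes of 0.37 ± 0.13 (adjusted p = 0.0489), 0.45 ± 0.16 (0.0474), 0.47 ± 0.14 (0.0186), 0.55 ± 0.12 (0.00399), 0.57 ± 0.19 (0.0325) and 0.61 ± 0.14 (0.00644). In the midbrain they were those of Mrpl37, Mrps2, Mrpl17, Mrpl18, Mrps10 and Mrpl38, from 0.45 ± 0.14 (adjusted p = 0.0308) for Mrpl37 to 0.59 ± 0.15 (adjusted p = 0.0105) for Mrpl38. Apart from that of Mrpl17 in the midbrain, each of these calls was lost with at least 1 of the other scalings, filters, tools or choices of groups, and Mrps6 came to -0.04 with the length-trend scaling.

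Other members had values near 0. Mrps22 had 19.6, 33.7 and 30.7 CPM in the hypothalamus IP against 29.3, 23.5 and 31.5 CPM in the input. In the midbrain Mrps22 had 23.6, 34.2 and 42.0 CPM in the IP against 28.8, 26.5 and 29.0 CPM in the input, so that the groups overlapped in both regions. Its log2 fold changes were -0.0042 ± 0.24 and 0.24 ± 0.24. Mrps31 had 50.3, 49.1 and 42.5 CPM in the hypothalamus IP against 46.1, 47.8 and 45.2 CPM in the input. In the midbrain Mrps31 had 36.2, 40.7 and 40.4 CPM in the IP against 42.8, 40.0 and 31.5 CPM in the input. Its log2 fold changes were 0.03 ± 0.15 and 0.04 ± 0.15. Both proteins are particular to the mitochondrial small subunit. The median standard error over the members was 0.19 in each region.

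Mrpl24, a large-subunit protein with a bacterial counterpart, had 13.1, 12.4 and 7.31 CPM in the hypothalamus IP against 9.13, 11 and 8.96 CPM in the input. In the midbrain Mrpl24 had 8.42, 6.62 and 8.23 CPM in the IP against 9.22, 12.8 and 11.8 CPM in the input. In the midbrain all IP libraries lay below the inputs, and the log2 fold change of -0.54 ± 0.26 did not pass the test (adjusted p = 0.126); in the hypothalamus it was 0.17 ± 0.26 (adjusted p = 0.652). With the length-trend scaling the midbrain value was -0.80 and passed (adjusted p = 0.0303). Exons of Mrpl24 overlap Rrnad1 on the other strand over 26.3% of their bases.

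Of the paralogous trio Mrps18a, Mrps18b and Mrps18c, the large-subunit protein gene Mrps18a passed the test, at 0.83 ± 0.20 (adjusted p = 0.00785) in the hypothalamus and 0.66 ± 0.20 (adjusted p = 0.0253) in the midbrain. Mrps18c was at 0.78 ± 0.33 (adjusted p = 0.0924) and 0.91 ± 0.33 (adjusted p = 0.0529), and Mrps18b at 0.66 ± 0.44 (adjusted p = 0.273) and 0.23 ± 0.43 (adjusted p = 0.717). Both calls of Mrps18a were lost with the length-trend scaling (adjusted p = 0.12 in the hypothalamus and 0.266 in the midbrain), and that of the midbrain also with the GC-trend scaling and with library size alone (0.0798 and 0.0775). Mrps18c passed in both regions without replicate 1 (adjusted p = 0.0344 and 0.028) and with the replicate block (0.00559 and 0.00184), and in the midbrain also by DESeq2 (0.0496) and limma-voom (0.0452). The differences between these genes were not tested. Mrps30, of the large subunit in spite of its symbol, was at 0.54 ± 0.30 (adjusted p = 0.186) and 0.42 ± 0.30 (adjusted p = 0.306), and Mrps36 at 0.58 ± 0.36 (adjusted p = 0.232) and 0.63 ± 0.35 (adjusted p = 0.192). Of Mrps36, 36.2% of the 50-base words occur in other annotated genes, among them its pseudogenes.

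Across the members, the ratio tended to be higher in short transcripts and in those rich in G and C. Their median exonic length was 1380.5 bases, against 3243 bases over the 15705 tested genes with an annotation. Across the 76 members, which are not independent, log2 exonic length and log2 fold change correlated at r = -0.37 in the hypothalamus and -0.26 in the midbrain, and transcript GC content and log2 fold change at r = 0.39 and 0.28. Log2 mean CPM and log2 fold change correlated at r = -0.07 and 0.18 across the members. Over all 18128 genes tested, level and fold change correlated at r = 0.43 and 0.44. The part of level in the contrast between the members and all genes was not tested. A scaling that takes out the trend with GC content over all genes gave members' medians of 0.87 in the hypothalamus and 0.74 in the midbrain. A scaling that takes out the trend of the ratio with length over all genes lowered the members' median to 0.59 in the hypothalamus, where the median over all genes was then -0.0022, and to 0.52 in the midbrain, where it was -0.01. The ratios of both regions went together across members, with r = 0.80 (0.78 across all genes tested), in groups of libraries that shared index by fraction.

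The same libraries were read for other parts of mitochondrial gene expression. Of 6 mitoribosome genes with other symbols, 3 rose in both regions. Aurkaip1, of the small subunit, was at 144 ± 13.7 CPM in the hypothalamus IP against 66.1 ± 11 CPM in the input (SD, n = 3 each) and a log2 fold change of 1.12 ± 0.16 (adjusted p = 0.000318). Gadd45gip1, a large-subunit protein at the peptide exit, was at 33.1 ± 2.60 against 15.3 ± 3.15 CPM, a log2 fold change of 1.11 ± 0.20 (adjusted p = 0.00119). Ict1, the peptidyl-tRNA hydrolase also called Mrpl58, was at 60.5 ± 16.9 against 28.1 ± 4.14 CPM, or 1.11 ± 0.23 (adjusted p = 0.00319). Dap3 and Ptcd3 of the small subunit were at 0.28 ± 0.20 and -0.28 ± 0.20 in the hypothalamus, neither past the test (adjusted p = 0.304 for each).

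Lists of genes that serve the mitoribosome are given next, with calls to be set against the 14.2% of all genes that rose and the 19.6% that fell in the hypothalamus, and 14% and 19.9% in the midbrain. Shares near these are not a result about a list. Among 14 genes listed as translation factors, 3 rose and 2 fell in the hypothalamus (median log2 fold change 0.12), and 2 rose and 2 fell in the midbrain (0.07). Tsfm, the elongation factor that recharges mitochondrial EF-Tu, rose by 1.26 ± 0.24 (adjusted p = 0.00173) and 1.24 ± 0.24 (adjusted p = 0.00189). Gfm2, which splits the mitoribosome after termination, fell by 1.00 ± 0.21 (adjusted p = 0.00348) and 0.78 ± 0.21 (adjusted p = 0.0132, and 0.0665 without replicate 1). Guf1, a translational GTPase, fell by 1.07 ± 0.27 (adjusted p = 0.00852) and 1.15 ± 0.27 (adjusted p = 0.00596). The hypothalamus call of Guf1 was lost with the GC-trend scaling (0.052) and without number 2 or number 3 (0.13 and 0.0873). Its midbrain call was lost without number 2 (0.0584). Tmem70, which rose by 0.98 ± 0.17 (adjusted p = 0.00126) and 1.06 ± 0.17 (adjusted p = 0.000797), is known as an assembly factor of ATP synthase and not as a translation factor.

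Of 21 genes for mitochondrial tRNA synthetases and the glutaminyl-tRNA amidotransferase, 2 rose in the hypothalamus and 3 in the midbrain and 0 fell (medians -0.0067 and 0.21). Lars2 was at 2360 ± 1080 CPM in the hypothalamus IP against 768 ± 20.8 CPM in the input and at 2660 ± 1330 CPM in the midbrain IP against 731 ± 131 CPM in the input (SD, n = 3 each). Its log2 fold changes were 1.62 ± 0.34 (adjusted p = 0.00343) and 1.87 ± 0.34 (adjusted p = 0.00159), with a spread among the IP libraries far above that among the inputs. The Lars2 levels lay far above the highest 12-library mean of a member, 119.7 CPM for Mrps14. What the reads counted for Lars2 came from was not tested. Gatc, a subunit of the amidotransferase, rose by 0.84 ± 0.19 (adjusted p = 0.00487) and 0.84 ± 0.19 (adjusted p = 0.00486), and Gatb by 0.74 ± 0.24 (adjusted p = 0.032) in the midbrain. Without replicate 1 the call of Gatb was lost in the midbrain (adjusted p = 0.143) and gained in the hypothalamus (0.0444). The midbrain call of Gatb was also lost with library size alone (0.066) and without any 1 of the midbrain libraries (0.0502 to 0.12). Of 22 genes of assembly and ribosomal RNA modification, 3 rose and 1 fell in the hypothalamus (median 0.42) and 1 rose and 1 fell in the midbrain (0.34). The fall in both regions was that of Mterf4, which brings a methyltransferase to the ribosomal RNA, by 1.01 ± 0.21 (adjusted p = 0.00328) and 1.15 ± 0.21 (adjusted p = 0.00161). In the hypothalamus the pseudouridine synthase gene Trub2 rose by 0.81 ± 0.19 (adjusted p = 0.00739) and the methyltransferase gene Mrm1 by 0.73 ± 0.25 (adjusted p = 0.0381), and the GTPase gene Noa1 rose by 0.68 ± 0.19 (adjusted p = 0.0161) in the midbrain. Without replicate 1 the call of Mrm1 was lost (adjusted p = 0.0889) and Noa1 passed in the hypothalamus too (0.017). The call of Mrm1 was also lost with library size alone (0.11) and with the GC-trend scaling (0.0672). The midbrain call of Noa1 was lost without number 2 or number 3 (0.149 and 0.145). It was also lost without the midbrain IP library 3, the input library 2 or the input library 3 (0.0514, 0.0558 and 0.0695). Of 12 genes for transcription and upkeep of mitochondrial DNA, the helicase gene Peo1 rose in the hypothalamus by 1.03 ± 0.28 (adjusted p = 0.0128). That call was lost without the hypothalamus input library 2 (0.0531) and without number 2 (0.16). The midbrain value of Peo1, 0.66, did not pass (adjusted p = 0.0839) but did with the replicate block (0.0397). In the midbrain the transcription factor gene Tfb2m rose by 0.74 ± 0.25 (adjusted p = 0.0357) and Polg2, of the polymerase gamma, fell by 2.02 ± 0.47 (adjusted p = 0.00661). The call of Tfb2m was lost without replicate 1 (adjusted p = 0.069) and without any 1 of the midbrain libraries (0.0563 to 0.125). It was also lost with library size alone (0.0591) and with the length-trend scaling (0.0521). The call of Polg2 was lost without number 2 or number 3 (0.0599 and 0.0571). Without number 2 or number 3, a call was also lost for Ict1, Gadd45gip1, Tsfm, Gfm2, Gatc and Gatb. The same held for Mterf4, Trub2, Mrm1 and Tfb2m. No RNA encoded by mitochondrial DNA had a row in the tables used here.

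**Figure D4:**
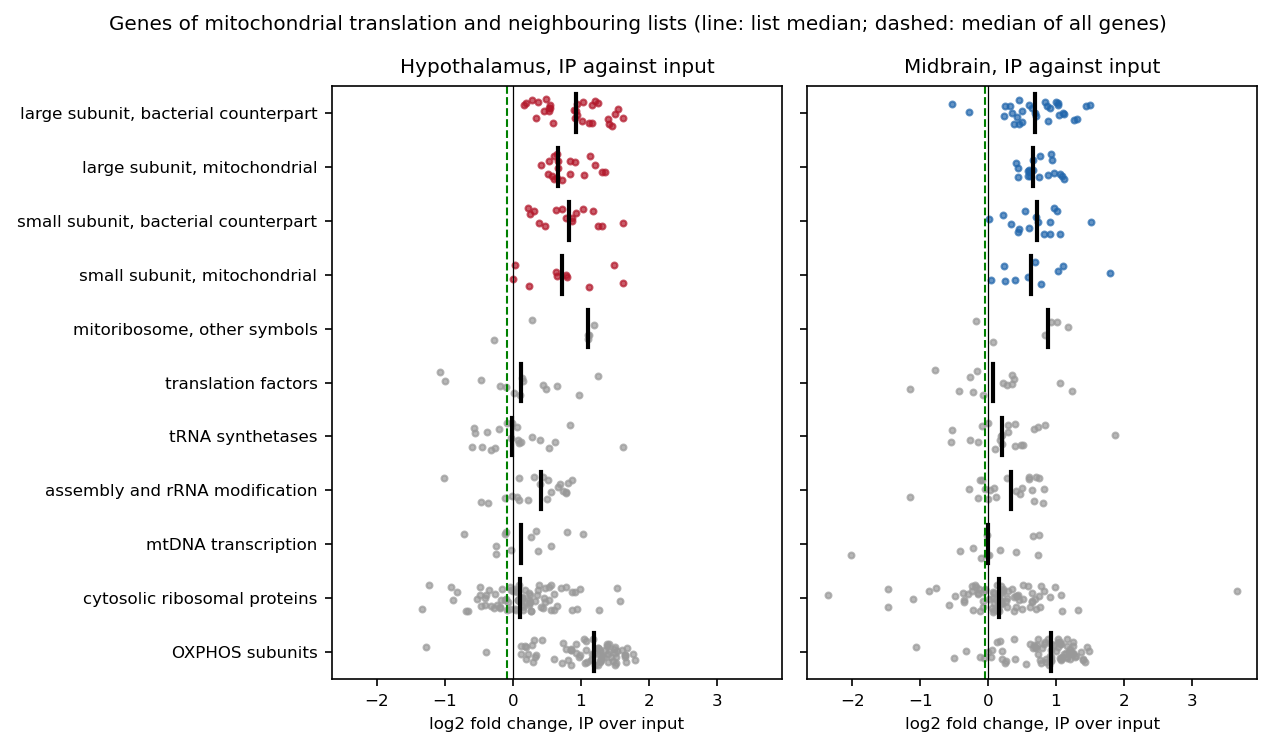
Log2 fold change of IP over input (x axis) for each tested gene of the 4 subunit classes (coloured) and of 7 further lists (grey), in the hypothalamus (left) and the midbrain (right), with each list's median as a black line and the median of all genes as a dashed line. The subunit classes have medians of 0.64 to 0.93, cytosolic ribosomal proteins 0.10 and 0.16 and nuclear oxidative phosphorylation subunits 1.20 and 0.93.

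For scale, 8 of 83 cytosolic ribosomal protein genes rose and 3 fell in the hypothalamus IP, with a median of 0.10, and 7 rose and 3 fell in the midbrain, with a median of 0.16; these genes have many pseudogenes, which makes their counts uncertain. Of 74 nuclear genes for oxidative phosphorylation subunits, 59 rose and 0 fell in the hypothalamus (median 1.20) and 52 rose and 0 fell in the midbrain (median 0.93). Differences between the lists were not tested.

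The second question was whether the IP to input difference of these genes differed between the hypothalamus and the midbrain. Calls were shared by 42 members, 7 rose past the threshold in the hypothalamus alone (Mrpl1, Mrpl35, Mrpl46, Mrpl47, Mrpl54, Mrps21 and Mrps35), 5 in the midbrain alone (Mrpl15, Mrpl3, Mrpl38, Mrpl49 and Mrps2) and 22 in neither. Of these 12 members called in a single region, 6 rose in both regions without replicate 1 and 10 with the replicate block. The shares of all genes called in both regions, in a single region or in neither are not given here. Across all genes tested the ratios of both regions correlated at r = 0.78. The split is therefore not read as a result about the members. The test of the difference itself called 0 members, higher or lower in the hypothalamus, by edgeR and by DESeq2, and 0 had an unadjusted p under 0.05. Over all genes 0.0607% were higher and 0.0165% lower at the adjusted threshold, and the shares at the unadjusted p are not given here. The members' median of the regional difference was 0.10 on the log2 scale (all genes -0.0089), and their standard errors were between 0.17 and 0.87, so differences of the size seen in single members were not detectable with these libraries.

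The widest differences were 1.54 ± 0.87 for Mrpl23, 0.70 ± 0.36 for Mrpl24 and 0.48 ± 0.24 for Mrpl47, and -0.37 ± 0.27 for Mrpl49, -0.28 ± 0.18 for Mrpl50 and -0.25 ± 0.34 for Mrps22, all with an adjusted p of at least 0.802. Mrpl47 had 30.1, 31.9 and 34.7 CPM in the hypothalamus IP against 14.2, 16.4 and 19.8 CPM in the input, and 21.5, 27.9 and 23.0 CPM in the midbrain IP against 18.5, 17.6 and 16.8 CPM in the input. All 3 of its same-numbered differences of IP and input were higher in the hypothalamus, as they were for 5 members in all, against 6.83% of all genes, and lower for 1, against 8.03%. Mrpl23 had 0.584, 1.23 and 1.09 CPM in the hypothalamus IP against 0.379, 0.591 and 0.242 CPM in the input. In the midbrain Mrpl23 had 0.765, 0.921 and 0.487 CPM in the IP against 0.615, 0.829 and 1.21 CPM in the input, levels at which counting error is large.

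Between the regions within a fraction, 0 members differed past the threshold. For the hypothalamus IP against the midbrain IP, 2.05% of all genes were higher and 2.21% lower at the adjusted threshold, and the members' median was 0.10 (all genes 0.01). At an unadjusted p under 0.05, 6 members were higher and 1 lower, but the shares of all genes at that threshold are not given here. DESeq2 called 1 member, Mrpl17, higher (log2 fold change 0.33, adjusted p = 0.0453). All 3 hypothalamus IP libraries lay above all 3 midbrain IP libraries in 12 members and below in 4, against 10% and 8.52% of all genes. For the inputs, 1% of all genes were higher in the hypothalamus and 0.601% lower at the adjusted threshold, and the members' median was 0.03 (all genes 0.01). At an unadjusted p under 0.05, 1 member was higher and 1 lower, again without the shares of all genes. DESeq2 called 0 members. With the replicate block, 521 genes were higher and 576 lower, with 0 members among them. All 3 hypothalamus inputs lay above all 3 midbrain inputs in 4 members and below in 3, against 11.9% and 10.2% of all genes. Region and sequencing lane cannot be told apart within a replicate number.

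The members with the widest values between the IPs were Mrpl24 (0.49 ± 0.26), Mrpl2 (0.45 ± 0.17) and Mrpl47 (0.42 ± 0.17) at the higher end and Mrps36 (-0.52 ± 0.35), Mrpl18 (-0.38 ± 0.18) and Mrpl3 (-0.31 ± 0.18) at the lower end. Between the inputs they were Mrpl33 (0.38 ± 0.25), Mrps18c (0.34 ± 0.33) and Mrps31 (0.28 ± 0.15), and Mrpl23 (-1.12 ± 0.62), Mrps36 (-0.47 ± 0.36) and Mrpl18 (-0.46 ± 0.18). In both fractions and without overlap between libraries, Mrpl17 and Mrps31 were higher and Mrpl18 lower in the hypothalamus, a set picked after the values were seen. Mrpl17 had 106, 109 and 98.2 CPM in the hypothalamus IP against 87.0, 79.6 and 83.3 CPM in the midbrain IP, and 66.0, 73.8 and 75.2 CPM in the hypothalamus input against 57.4, 62.4 and 57.6 CPM in the midbrain input. Its adjusted p was 0.155 between the IPs and 0.385 between the inputs. Mrpl18 had 68.7, 107 and 116 CPM in the hypothalamus IP against 125, 122 and 134 CPM in the midbrain IP, and 60.6, 63.7 and 69.7 CPM in the hypothalamus input against 84.4, 98.1 and 85.3 CPM in the midbrain input. Neither difference of Mrpl18 passed the test (adjusted p = 0.273 and 0.294), and 10.1% of its exonic bases overlap Tcp1 on the other strand. The catalytic-centre protein gene Mrpl2 had 30.3, 38.4 and 31.3 CPM in the hypothalamus IP against 26.4, 24.4 and 22.7 CPM in the midbrain IP (adjusted p = 0.176).

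The members also marked the libraries of replicate 1. Of 76 members, the lowest library of the group was replicate 1 in 53 in the hypothalamus IP, 56 in the hypothalamus input, 38 in the midbrain IP and 49 in the midbrain input, against 35%, 38.4%, 28.7% and 33.1% of all genes tested. In 24 members (31.6%) it was the lowest in all 4 groups, against 7.66% of all genes. The median over members of log2 CPM in replicate 1 minus the mean of replicates 2 and 3 was -0.26, -0.20, -0.11 and -0.20 in these groups in turn, with medians over all genes between -0.0204 and 0.0329.

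**Figure D5:**
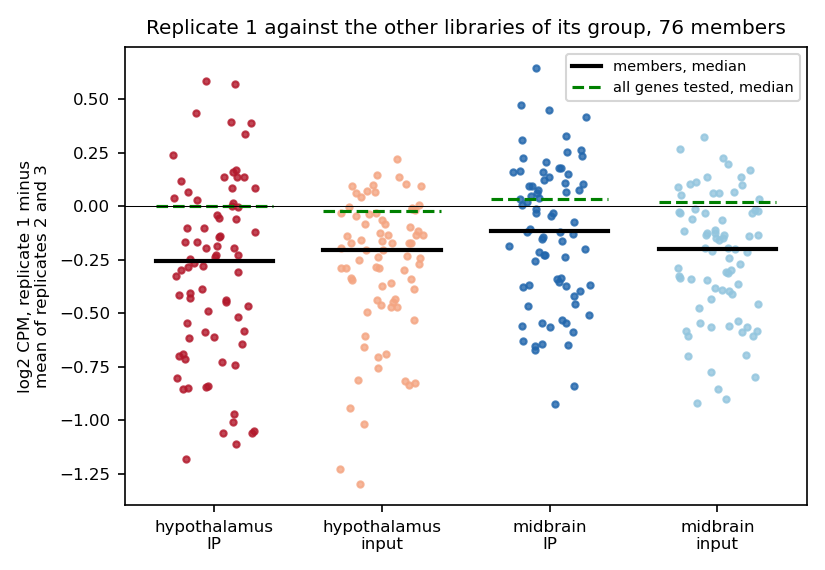
Difference of log2 CPM between replicate 1 and the mean of replicates 2 and 3 (y axis) for each of the 76 tested members, by group, with the members' median as a black line and that of all genes as a dashed line. The members' medians lie at -0.26, -0.20, -0.11 and -0.20, below those of all genes in every group.

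Mrps21 and Mrpl42 were farthest below in replicate 1. Mrps21, with an exonic length of 492 bases, had 39.4, 69.8 and 73.6 CPM in the hypothalamus IP against 13.2, 30.6 and 32.9 CPM in the input. In the midbrain Mrps21 had 44.2, 69.8 and 69.6 CPM in the IP against 18.8, 38.8 and 33.6 CPM in the input. Mrpl42, with 679 bases, had 39.4, 71.7 and 93.8 CPM in the hypothalamus IP against 23.7, 41.5 and 42.9 CPM in the input. In the midbrain Mrpl42 had 45.5, 76.1 and 99.3 CPM in the IP against 33.7, 55.5 and 54.4 CPM in the input. In both genes replicate 1 was the lowest of each group, and IP and input nevertheless differed in the same direction within each number. The mean difference of replicate 1 over the 4 groups was -0.92 for Mrps21 and -0.87 for Mrpl42 on the log2 scale, and 0.25 for Mrpl51 and 0.24 for Mrpl12 at the other end. Across the 76 members this difference correlated with log2 exonic length at r = 0.36. Whether RNA quality, library preparation or the tissue of these samples differed was not tested. With this spread in the fit, the rise of Mrpl42 did not pass the test in either region (0.92 ± 0.36, adjusted p = 0.0674, and 0.62 ± 0.36, adjusted p = 0.205), and that of Mrps21 passed in the hypothalamus (1.25 ± 0.37, adjusted p = 0.0216) and not in the midbrain (1.01 ± 0.37, adjusted p = 0.0527). Without replicate 1 Mrpl42 passed in both regions (adjusted p = 0.00248 and 0.0157) and Mrps21 in the midbrain (0.00101). With the replicate block Mrpl42 had adjusted p-values of 0.000181 and 0.00336, and Mrps21 had 9.76e-05 in the midbrain. Mrps21 passed in the midbrain also by DESeq2 (adjusted p = 0.0436) and limma-voom (0.0409), and its hypothalamus call was lost with library size alone (0.0545) and without the hypothalamus IP library 2, the IP library 3 or the input library 1 (0.0627, 0.0664 and 0.0619).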

How the data were processed

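Raw read counts per gene symbol were deposited, 1 table for each of 12 libraries, with 32531 gene rows. Per the submitters' processing notes, reads were aligned with STAR 2.0.0e to mm10 and counted with HTSeq; the annotation, strand setting and counting mode are not given in the sources used here. The 5 HTSeq summary rows and a row named unknown (at most 7 counts) were left out; of all reads, 23.7% to 48.6% had several alignments, 1.37% to 16.2% were ambiguous and 7.59% to 17.4% lay in no feature. Such handling lowers the counts of genes with copies or overlaps.

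The tests used edgeR 4.0.16 and limma 3.58.1 under R 4.3.3. Genes kept by filterByExpr (18128) were scaled by the trimmed mean of M values, and 4 group means were fitted over all libraries and tested with the robust quasi-likelihood F test, with a Benjamini-Hochberg adjusted p under 0.05 over all 18128 genes. CPM are counts scaled to library size on that scale. The script was tested on simulated data. Fold changes are log2 differences between the first and second group named, with standard errors. The 5 comparisons were IP against input in each region, the difference between regions, and the regions within each fraction. Alternatives were DESeq2 1.42.0, limma-voom, other scalings, filters and groupings, replicate blocks and left-out libraries; those leaving out a replicate number in all 4 groups were chosen after seeing the data.

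Annotation was GENCODE M21 (GRCm38), matched by symbol for 86.6% of the genes tested; exonic length is the union of exons of protein-coding basic transcripts. Promoters came from RefSeq (GRCm38.p6). Named for each comparison were the 6 highest and 6 lowest members that passed with no overlap between libraries (3 and 3 by value where 0 passed), the Mrps18 genes, Mrpl12, Mrps30, Mrps36, the extremes per kilobase, members not tested and, of other lists, the 2 highest and 2 lowest that passed; further genes were added after their values were seen. The members and lists were chosen with earlier results of these data known. Counting intervals and floors cover counting error only, since the reads carry no molecular identifiers. Same-numbered IP and input libraries of a region shared a sequencing lane, per the labels. Across the 18128 genes, the deviations of same-numbered libraries from their group means correlated at 0.134 to 0.288 between hypothalamus IP and input and 0.133 to 0.346 between the inputs, where every pair was over 0.1 and the numbers were taken to pair the libraries. They correlated at 0.0699 to 0.169 between midbrain IP and input and 0.0946 to 0.258 between the IPs, where 1 pair in each was under 0.1. Across the 76 members all 12 correlations were between 0.123 and 0.74. The main fit did not use the pairing by number, so its calls and p-values are unpaired. Fits with a replicate block, which did use it, are given as alternatives.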

Additional observations from a re-analysis of the deposited data

Results flagged for a closer look

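Reads with several alignments, which no comparison used, made up 37.33% to 48.59% of the reads in the 6 IP libraries and 23.73% to 30.04% in the 6 input libraries, so that the lowest IP library lay above every input. Members with copies elsewhere in the genome lose reads to this class, and its part in their values was not tested.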

How the results depend on the processing

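The members' median of IP over input stayed above 0 in both regions under every alternative tried, while its size moved. The number of members that rose ranged over single left-out libraries from 36 to 58 in the hypothalamus and from 34 to 46 in the midbrain, with medians of 0.665 to 0.937 and 0.631 to 0.806. Without all libraries of replicate number 2 it was 20 and 24, and without those of number 3 it was 30 and 25. The median in the hypothalamus came to 0.595 with the length trend removed and to 0.634 with library size alone, a scaling that moved the median of all genes there to -0.25 from -0.08 and the share of rises among all calls to 28.9% from 42.1%. In the midbrain the median was 0.524 with the length trend removed, where Mrpl24 fell (log2 fold change -0.80, adjusted p = 0.0303) and made 1 member lower, and Mrps6 in the hypothalamus turned to -0.038. Between the IPs, DESeq2 called 1 member higher. Between the inputs, the median was 0.154 with library size alone, where that of all genes was 0.14 and rises were 74.1% of calls against 62.5%, -0.0762 without replicate number 3 and -0.0707 to 0.0923 over single left-out libraries; it was 0.0451 to 0.182 between the IPs and 0.0098 to 0.207 for the regional difference. With a replicate block, 62 members rose in the hypothalamus and 62 in the midbrain, with 3544 genes rising and 4316 falling, and 3672 and 4280; the regional difference then held 58 and 47 genes, the IPs 800 and 1224 and the inputs 521 and 576, with 0 members in each. With the replicate block, 10 of the 12 members called in a single region in the main fit rose in both regions. The values for Mrpl42, Mrps18c and Mrps21, whose calls it changed, are given above. With the block set by region and number, 59 and 57 members rose. Depth limits Mrpl23, Mrps18b and Mrps34. Mrps36 had 3239 counts over the 12 libraries, and 2.80, 6.39 and 6.86 CPM in the hypothalamus IP. Without the hypothalamus IP library 1 its rise there passed the edgeR test (adjusted p = 0.0456).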
